A study of Homo sapiens with 282 samples.

Results

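Geldanamycin at 0.032 uM was compared with its vehicle, DMSO, after 24 h in OCI-Ly3 cells. OCI-Ly3 is an established human lymphoma line of the activated B cell-like subtype of diffuse large B cell lymphoma. The series holds 282 arrays of this line, exposed to 14 compounds for 6, 12 or 24 h, and the comparison uses 10 of them. Arrays were chosen by the compound, concentration and time of their labels and kept where the 75th percentile of their log2 values over all probe sets was at least 8. All 3 geldanamycin arrays passed, with percentiles of 8.17 to 8.29. Of the 8 DMSO arrays (1% DMSO, 24 h), 7 passed with 8.17 to 8.25, and DMSO replicate 7 was left out at 7.98. Cells were seeded in multiwell plates and treated 12 h after plating, and RNA was isolated well by well. The labels do not say whether replicates came from separate cultures, so p-values measure the spread between arrays within groups, which may be technical. That spread was pooled over the groups of all 77 kept arrays of 24 h, not taken from these 10 alone.

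Geldanamycin is an ansamycin that occupies the ATP pocket of the chaperone HSP90. HSP90 folds and stabilises client proteins, among them kinases, steroid receptors and transcription factors, with the help of co-chaperones and of the HSP70 system. HSP90 also holds heat shock factor HSF1 inactive, and inhibitors of HSP90 are known to switch on the heat shock genes. Activated B cell-like lymphoma lines are known for constant NF-kappaB and JAK/STAT3 signalling, in which several proteins depend on HSP90.

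Of 18239 measured genes, 429 rose and 520 fell under geldanamycin 0.032 uM at an adjusted p under 0.05 (limma with Benjamini-Hochberg adjustment over all genes), which is 2.35% and 2.85% of the genes tested. The balance of higher and lower calls turned under other scalings, with 536 higher and 475 lower after quantile normalization of the kept arrays, and 527 higher and 393 lower when the probe sets of each gene were averaged. The changes were small. Only 5 genes rose and 2 fell by at least 1 on the log2 scale, the largest being 1.49 for CTLA4 and -1.20 for POSTN. The median log2 fold change of all genes was -0.0167 and the median standard error 0.12. For 300 of the called genes (1.64% of all genes) the 3 geldanamycin arrays lay above all 7 DMSO arrays, and for 339 (1.86%) below all of them. The count rests on leaving out the arrays of low signal. With all arrays of 24 h in the fit, 4 genes were called, CTLA4, CLU, PLAAT4 and GPR155, all higher. With the spread estimated from the 2 groups alone, 259 genes were called. Without geldanamycin replicate 2 the count was 574, and without replicate 3 it was 578. Each gene is given by 1 probe set. With its probe sets averaged instead, 26 of the 88 called genes chosen by the naming rule that have several lost their call. For genes of that rule whose fold change is printed below, averages that end a call or move a value by over 1.5 times are given too. Some genes of that rule are not printed. Further list members, chosen after their values were seen, were not checked singly in this way.

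**Figure D1:**
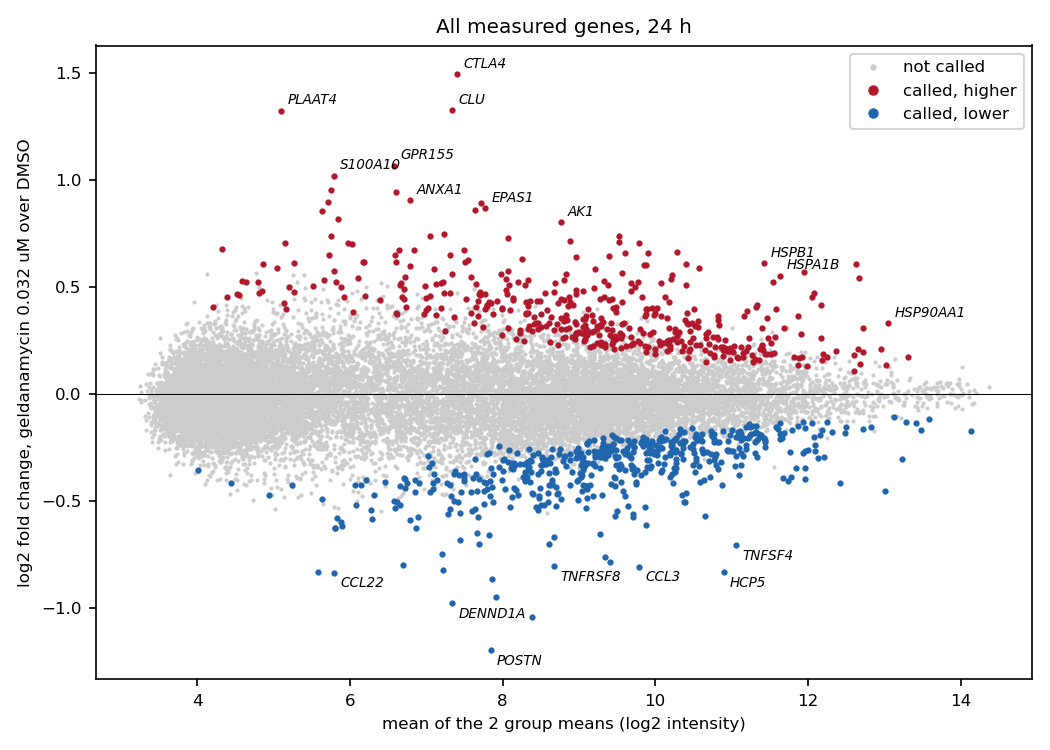
Log2 fold change of geldanamycin 0.032 uM over DMSO at 24 h (vertical axis) against the mean of both group means in log2 intensity (horizontal axis), 1 point per gene. Red points are the 429 genes called higher, blue points the 520 called lower and grey points the rest. The 5 genes that rose by 1 or more, led by CTLA4 at 1.49, stand above a cloud in which most called genes differ by less than 0.5.

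The cell type label was checked against markers. Of 9 measured B cell markers, 4 (PAX5, CD74, HLA-DRA and IRF4) lay above the medians of all 10 arrays (5.60 to 5.79), while MS4A1, CD79A, CD79B, CD22 and POU2AF1 did not. HLA-DRA averaged 12.38 on geldanamycin arrays and 12.45 on DMSO arrays, and IRF4 13.14 and 13.04. Of the markers of other cells, 1 of 10 of T and NK cells (PRF1), 0 of 10 of monocytes and macrophages, 2 of 10 of epithelium and fibroblasts and 1 of 4 of erythroid cells lay above these medians. None of these was called. Of 7 plasma cell markers, 4 (SDC1, PRDM1, XBP1 and IRF4) lay above these medians, and PRDM1 was the only one that was called. In a bulk sample, fewer cells of a kind and less RNA per cell cannot be told apart.

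Both cytosolic HSP90 genes were higher under geldanamycin at 24 h. HSP90AA1, the stress-inducible form, had log2 intensities of 13.27, 13.12 and 13.25 on the geldanamycin arrays, against 12.72 to 13 (median 12.91) on the DMSO arrays. Its log2 fold change was 0.33 ± 0.05 (standard error, as in all fold changes below), with an adjusted p of 7.08e-06. HSP90AB1, the constitutive form, had 13.09, 13.05 and 13.06 on geldanamycin arrays, against 12.77 to 12.91 (median 12.89) on DMSO arrays. The groups overlapped in neither gene, and HSP90AB1 rose by 0.21 ± 0.03 (adjusted p = 7.69e-06). HSP90B1, the paralog of the endoplasmic reticulum, differed by 0.01 ± 0.04 and TRAP1, the mitochondrial one, by -0.08 ± 0.06, and neither was called.

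Among the cytosolic HSP70, HSP40, HSP110 and small heat shock proteins and their partners, 9 of 27 measured members rose (33.3%, against 2.35% of all genes) and 0 fell, with a list median of 0.22. Leaving out any 1 array gave 9 to 12 rises. HSPB1, the small heat shock protein HSP27, had 11.74, 11.75 and 11.70 on geldanamycin arrays, against 11.02 to 11.19 (median 11.13) on DMSO arrays. It rose by 0.61 ± 0.06 (adjusted p = 4.99e-13), a ratio of 1.53. DNAJB1, an HSP40 that delivers substrates to HSP70, had 10.98, 10.78 and 10.84 on geldanamycin arrays and 10.20 to 10.36 (median 10.29) on DMSO arrays. All its geldanamycin arrays were thus above all DMSO arrays, and it rose by 0.59 ± 0.06 (adjusted p = 1.92e-11).

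BAG3, a partner of HSP70 that directs clients to autophagy, had 9.88, 9.81 and 9.86 on geldanamycin arrays, against 9.14 to 9.45 (median 9.26) on DMSO arrays, and rose by 0.57 ± 0.07 (adjusted p = 2.44e-09). HSPA1B, an inducible HSP70, had 11.91, 11.90 and 11.92 on geldanamycin arrays, against 11.16 to 11.56 (median 11.35) on DMSO arrays. It rose by 0.55 ± 0.06 (adjusted p = 3.64e-11), and its near-identical copy HSPA1A by 0.45 ± 0.08. The probe sets of these copies may share signal, so the genes are not separate results. HSPH1, the HSP110 exchange factor, rose by 0.31 ± 0.04, with all 8 of its probe sets called higher and an average of 0.572 over them. DNAJA1, a further HSP40, rose by 0.26 ± 0.05, ST13, which bridges HSP70 and HSP90, by 0.45 ± 0.08, and SERPINH1, the collagen chaperone HSP47, by 0.44 ± 0.09. For each of these 9 genes the 2 groups of arrays did not overlap. Averaged over probe sets, 14 of the 27 members rose. HSPA6, a strictly inducible HSP70, stood at 5.19, 5.30 and 4.68 on geldanamycin arrays and 4.23 to 4.89 on DMSO arrays, below the array medians, and was not called (0.56 ± 0.19, adjusted p = 0.0602).

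**Figure D2:**
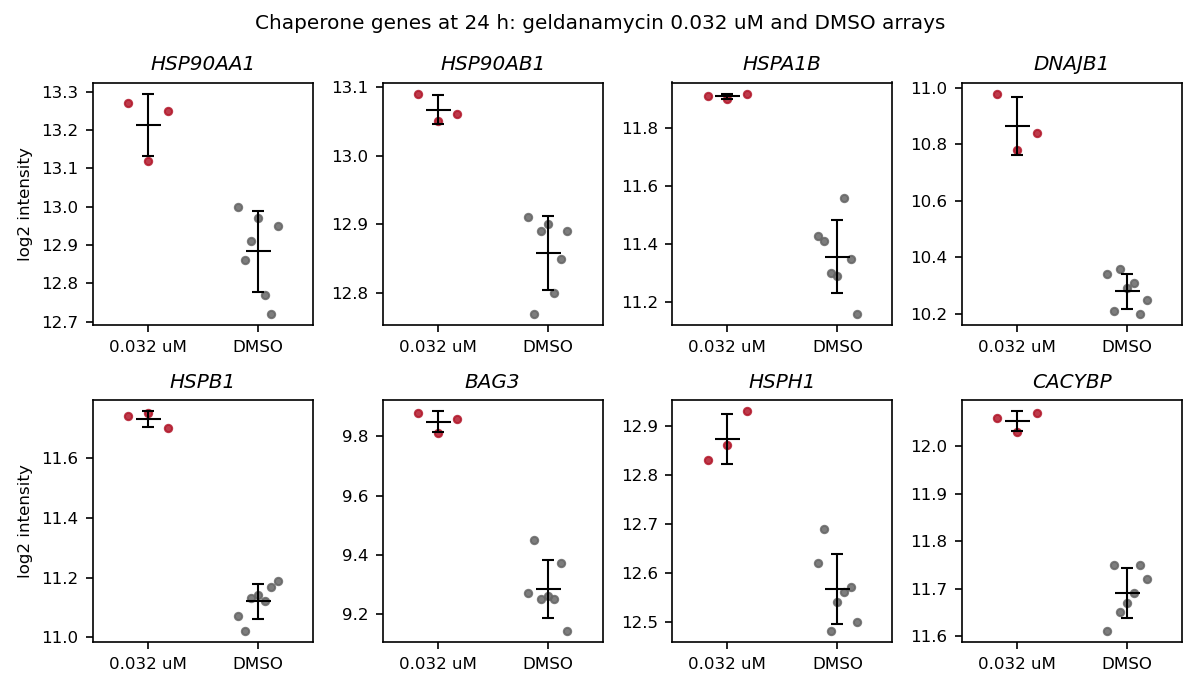
Log2 intensity of 8 chaperone and co-chaperone genes at 24 h on the 3 geldanamycin 0.032 uM arrays (red, left) and the 7 DMSO arrays (grey, right), with the mean and SD of each group as a bar. In each panel every red point lies above every grey point, and HSPB1, DNAJB1, BAG3 and HSPA1B differ most in their means. Vertical axes do not start at 0 and differ between panels.

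Fewer co-chaperones of HSP90 were called. Of 19 measured, 4 rose (21.1%, against 2.35% of all genes) and 0 fell, with a list median of 0.13. CACYBP, which binds SIAH1 and HSP90, had 12.06, 12.03 and 12.07 on geldanamycin arrays, against 11.61 to 11.75 (median 11.69) on DMSO arrays, and rose by 0.36 ± 0.04 (adjusted p = 1.80e-09). STIP1, which joins HSP70 to HSP90, rose by 0.29 ± 0.08, SUGT1 by 0.25 ± 0.07 and AHSA2P, a pseudogene related to the ATPase activator of HSP90, by 0.47 ± 0.15. Those 3 calls were lost when single arrays were left out: STIP1 without geldanamycin replicate 2 or 3 (0.28 in either case), SUGT1 without geldanamycin replicate 1 or 3 or DMSO replicate 5 (0.20 to 0.22), and AHSA2P without any of 6 arrays (0.41 to 0.53). FNIP2 was the member with the lowest value, -0.32 ± 0.10, and was not called. Averaged over probe sets, STIP1 (0.454) and SUGT1 (0.235) were not called, and CACYBP stood at 0.191. The mitochondrial chaperones and the cytosolic chaperonin gave 3 rises (18.8%, against 2.35% of all genes) and 0 falls among 16 measured genes. They were HSPE1 at 0.27 ± 0.08, HSPD1 at 0.21 ± 0.05 and TCP1, a chaperonin subunit, at 0.16 ± 0.05. HSPE1 lost its call without any of 4 arrays, TCP1 without any of 6, and HSPD1 without geldanamycin replicate 3, where it stood at 0.15. TCP1 was not called with the mean of its probe sets either (0.11). None of the 4 measured heat shock factor genes was called, and HSF1 differed by 0.01 ± 0.10.

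Promoters of called chaperone genes are shown because heat shock factors bind runs of inverted nGAAn units. The 250 bases before the start of each gene were searched on both strands for GAANNTTC, a pair of such units, which reads the same on either strand. This short form was chosen after a longer one had been searched, so the counts are a description. It occurs in 677 of 14492 promoters of measured genes with a sequence (4.67%), in 12 of 55 promoters of the 4 chaperone and co-chaperone lists (21.8%), and in 6 of the 16 that were called. Sequences are from RefSeq (GRCh38.p14), read 5′ to 3′ on the strand of the gene, with the match in capitals.
HSPA1A, chr6:31815293-31815542, plus strand: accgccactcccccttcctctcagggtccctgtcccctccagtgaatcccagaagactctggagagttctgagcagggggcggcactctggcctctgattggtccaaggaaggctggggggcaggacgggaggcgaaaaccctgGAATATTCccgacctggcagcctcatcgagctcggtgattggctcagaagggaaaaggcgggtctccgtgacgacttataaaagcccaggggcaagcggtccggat
HSPB1, chr7:76302423-76302672, plus strand: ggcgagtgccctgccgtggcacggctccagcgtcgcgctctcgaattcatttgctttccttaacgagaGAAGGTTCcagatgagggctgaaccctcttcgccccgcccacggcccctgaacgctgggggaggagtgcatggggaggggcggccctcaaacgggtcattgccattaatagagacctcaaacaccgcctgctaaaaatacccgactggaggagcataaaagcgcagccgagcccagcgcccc
SERPINH1, chr11:75562003-75562252, plus strand: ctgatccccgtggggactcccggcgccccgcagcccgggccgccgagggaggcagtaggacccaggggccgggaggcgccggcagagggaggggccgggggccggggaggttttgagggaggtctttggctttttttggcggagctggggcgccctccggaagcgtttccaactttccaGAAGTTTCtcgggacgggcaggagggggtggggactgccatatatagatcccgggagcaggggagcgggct
The match begins 106 bases before the start of HSPA1A, 182 before that of HSPB1 and 71 before that of SERPINH1. HSPA1B, DNAJA1 and TCP1 hold it as well. HSP90AA1, HSP90AB1, DNAJB1, BAG3 and HSPH1 have no match to these letters in this window. Only a single start of each gene was searched, which need not be the start used in these cells, and other starts were not searched. A match to this short form is no measured binding site.

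SERPINH1, which works in the endoplasmic reticulum, was counted above with the heat shock proteins. Of 24 other measured genes, chaperones of the reticulum and genes of the unfolded protein response, 0 rose and 3 fell (12.5%, against 2.85% of all genes). HYOU1, an HSP110 relative of the reticulum, had 11.92, 11.95 and 11.75 on geldanamycin arrays, below the 12.08 to 12.25 (median 12.11) of the DMSO arrays, and fell by 0.26 on the log2 scale (standard error 0.05, adjusted p = 3.51e-04). DNAJB9 fell by 0.30 (standard error 0.07) and CANX, the lectin chaperone calnexin, by 0.11 (standard error 0.03). Without geldanamycin replicate 3, 1 member was called lower. DNAJB9 then stood at -0.19, and CANX lost its call without any of 6 arrays. None of the 3 was called after averaging probe sets (HYOU1 -0.119, DNAJB9 -0.099 and CANX -0.00899), while 1 member of the list rose and 1 fell. No proteasome or ubiquitin gene of 28 measured was called in either direction, and none of 40 cytosolic ribosomal protein genes. Of all genes 5.2% were called in either direction, so lists of this size would hold few calls at that share.

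The largest rises were led by genes outside the chaperone lists. CTLA4, an inhibitory receptor best known from T cells, had 7.93, 8.27 and 8.26 on geldanamycin arrays, against 6.06 to 7.23 (median 6.65) on DMSO arrays. It rose by 1.49 ± 0.16 (adjusted p = 1.87e-10), a ratio of 2.81, and all 4 of its probe sets were called higher. The mean level of 10 T and NK cell markers ran from 4.90 to 5.12 on geldanamycin arrays and from 4.78 to 5.07 on DMSO arrays. PRF1 alone lay above the array medians in both groups, at 7.23 under geldanamycin and 6.9 in DMSO. None of the 10 was called, and their median log2 fold change was 0.1. CLU, the secreted chaperone clusterin, had 8.01, 8.09 and 7.89 on geldanamycin arrays and 6.34 to 7.08 (median 6.64) on DMSO arrays, and rose by 1.32 ± 0.12 (adjusted p = 7.18e-13). The second probe set of CLU gave -0.09, so that value rests on 1 probe set. Both rises stayed called after averaging probe sets, at 0.928 for CTLA4 and 0.615 for CLU.

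PLAAT4, a phospholipase induced by retinoids, had 6.02, 5.91 and 5.36 on geldanamycin arrays, against 4.18 to 5.10 (median 4.35) on DMSO arrays, and rose by 1.32 ± 0.17 (adjusted p = 1.14e-08). Its DMSO level lay below the array medians, where background was not measured and a fold change may be understated. GPR155, a cholesterol-sensing protein of lysosomes, had 7.10, 7.07 and 7.18 on geldanamycin arrays and 5.82 to 6.32 (median 6.05) on DMSO arrays. It rose by 1.07 ± 0.15 (adjusted p = 2.20e-07). S100A10, the partner of annexin A2, rose by 1.02 ± 0.16 and ANXA1, annexin A1, by 0.90 ± 0.14. SAMSN1, an adaptor that dampens B cell activation, rose by 0.95 ± 0.17, and LGR4, a receptor for R-spondins, by 0.90 ± 0.16. The second probe set of LGR4 gave -0.07. DMSO means of S100A10 (5.28), SAMSN1 (5.28) and LGR4 (5.26) lay below the array medians as well. Mean values over probe sets were 0.415 for LGR4, 0.719 for PLAAT4 and 0.629 for GPR155, all called. For each of these genes the arrays of the 2 groups did not overlap, as the choice of the 15 largest rises required.

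The other 7 of those 15 rose by 0.80 to 0.94. EPAS1, the oxygen-regulated factor HIF-2 alpha, had 8.24, 8.20 and 8.19 on geldanamycin arrays, against 7.16 to 7.60 (median 7.31) on DMSO arrays. AK1, an adenylate kinase, had 9.15, 9.17 and 9.20 on geldanamycin arrays, against 8.11 to 8.61 (median 8.30) on DMSO arrays. The gap between the groups exceeded the range within either group for EPAS1 and for AK1. CDKN1C, the cyclin-dependent kinase inhibitor p57, rose by 0.86 ± 0.16, ARRDC3, an arrestin relative, by 0.86 ± 0.18, SCPEP1, a serine carboxypeptidase, by 0.89 ± 0.13, and SAMD9, an antiviral factor, by 0.82 ± 0.14. H2BC15, a histone H2B gene, rose by 0.94 ± 0.13. DMSO means of CDKN1C (5.21) and SAMD9 (5.43) lay below the array medians. Averages over probe sets were 0.462 for EPAS1 and 0.557 for ARRDC3, both called.

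The largest falls included secreted and membrane signalling proteins. POSTN, the matrix protein periostin, had 7.62, 7.19 and 6.93 on geldanamycin arrays, against 8.26 to 8.69 (median 8.39) on DMSO arrays. It fell by 1.20 on the log2 scale (standard error 0.10, adjusted p = 3.82e-15), and 4 of its 5 probe sets were called lower. IL18R1, the receptor for interleukin 18, had 7.66, 7.31 and 7.35 on geldanamycin arrays and 8.28 to 8.50 (median 8.40) on DMSO arrays. TNFSF4, the ligand of OX40, had 10.78, 10.59 and 10.74 on geldanamycin arrays, against 11.14 to 11.62 (median 11.44) on DMSO arrays. Neither gene overlapped between the groups, and the log2 fold changes were -0.95 ± 0.09 for IL18R1 and -0.71 ± 0.05 for TNFSF4. HCP5, a noncoding RNA of the MHC region, fell by 0.83 with a standard error of 0.05, and had the smallest adjusted p of the genes named here in this comparison, 2.32e-19. DENND1A, an exchange factor for Rab GTPases, fell by 0.98, CLSTN2, a calsyntenin, by 0.87, EHF, an ETS factor, by 0.82, TNFRSF8, the receptor CD30, by 0.80, POU3F2, a POU factor, by 0.80, and ENC1 by 0.76. Averages over probe sets were -0.419 for DENND1A and -0.318 for EHF, both called. ACKR3, a decoy receptor for chemokines, fell by 1.04 (standard error 0.13) with overlapping arrays: 8.41, 7.47 and 7.71 under geldanamycin and 8.40 to 9.24 in DMSO.

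Chemokines, cytokines and adhesion molecules were among the targets of NF-kappaB that fell. Of 24 measured NF-kappaB targets, 7 fell (29.2%, against 2.85% of all genes) and 0 rose, with a list median of -0.10. CCL3, a chemokine for monocytes and T cells, had 9.38, 9.46 and 9.33 on geldanamycin arrays, against 10.12 to 10.26 (median 10.18) on DMSO arrays, and fell by 0.81 on the log2 scale (standard error 0.07, adjusted p = 4.78e-15). IL6, the cytokine that acts through JAK and STAT3, had 6.64, 6.31 and 6.87 on geldanamycin arrays and 6.97 to 7.34 (median 7.22) on DMSO arrays, and fell by 0.57 (standard error 0.11, adjusted p = 2.13e-04). Neither overlapped between the groups. CCL22, a ligand of CCR4, fell by 0.83 (standard error 0.19). Its DMSO level lay near the array medians, and its second probe set gave 0.09. CD40, a receptor that activates NF-kappaB, fell by 0.60 (standard error 0.13), and lost its call without geldanamycin replicate 3, at -0.46. TRAF1 fell by 0.29, ICAM1, an adhesion molecule, by 0.34, and EBI3, a subunit of interleukin 27, by 0.21. With the mean of probe sets 4 members fell and 1 rose, and IL6 (-0.318) and CCL22 (-0.37) were among those not called. TRAF1, ICAM1 and EBI3 were not checked singly with that mean. Outside the list, CCL1 fell by 0.78 (standard error 0.09) and TNF by 0.75 (standard error 0.11).

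The promoters of IL6 and CCL22 are shown because NF-kappaB binds a short kappaB site. GGGA, any 4 bases and CC in a row were searched on both strands in the same 250 bases, and overlapping matches are joined in capitals. Such runs occur in 26% of the 14492 promoters, in 11 of 20 promoters of the NF-kappaB list and in 4 of the 6 that were called.
IL6, chr7:22726950-22727199, plus strand: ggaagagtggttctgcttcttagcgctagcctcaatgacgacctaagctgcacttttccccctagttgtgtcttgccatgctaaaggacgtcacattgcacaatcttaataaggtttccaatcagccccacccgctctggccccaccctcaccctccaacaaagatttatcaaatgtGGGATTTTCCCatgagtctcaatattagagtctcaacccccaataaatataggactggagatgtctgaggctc
CCL22, chr16:57358533-57358782, plus strand: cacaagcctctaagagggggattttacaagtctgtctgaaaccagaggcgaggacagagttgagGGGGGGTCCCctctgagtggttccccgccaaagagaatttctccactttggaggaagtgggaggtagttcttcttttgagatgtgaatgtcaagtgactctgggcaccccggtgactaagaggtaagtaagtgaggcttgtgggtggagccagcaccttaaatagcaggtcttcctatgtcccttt
IL6 has 2 overlapping matches, which begin 73 and 72 bases before the start, and CCL22 has 1 on the other strand at 186 bases. ICAM1 and EBI3 also hold such a run, and CCL3 and TRAF1 have no match in this window. Here too a single start of each gene was searched. A match of this length is frequent and is no measured binding site.

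In the list of JAK and STAT3 genes, 1 of 17 measured members rose and 3 fell, IL6 among them. These shares were 5.88% and 17.6%, against 2.35% and 2.85% of all genes. SOCS1, the feedback inhibitor of JAK kinases, had 9.55, 9.54 and 9.53 on geldanamycin arrays, against 9.80 to 10.08 (median 9.97) on DMSO arrays. BATF, an AP-1 factor of activated lymphocytes, had 9.53, 9.46 and 9.56 on geldanamycin arrays and 9.76 to 9.97 (median 9.87) on DMSO arrays. Both lay wholly below DMSO, with log2 fold changes of -0.42 ± 0.06 for SOCS1 and -0.35 ± 0.07 for BATF. PIM2, a survival kinase, went the other way and rose by 0.51 ± 0.12. Without DMSO replicate 1, 5 members of the list fell. SOCS1 was not called with the mean of its probe sets (-0.253, adjusted p = 0.0535 by limma). In the BCL2 family of 17 measured genes, BCL2L1, which encodes the survival protein BCL-XL, had 9.03, 9.02 and 9.14 on geldanamycin arrays, against 9.28 to 9.73 (median 9.59) on DMSO arrays, and fell by 0.47 (standard error 0.07, adjusted p = 1.07e-06). BCL2L11, the death-promoting BIM, fell by 0.28 (standard error 0.07) and lost its call without geldanamycin replicate 1, at -0.25. HRK, another death-promoting member, rose by 0.52 ± 0.14, and lost its call without geldanamycin replicate 2 or 3 (0.37 and 0.43).

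**Figure D3:**
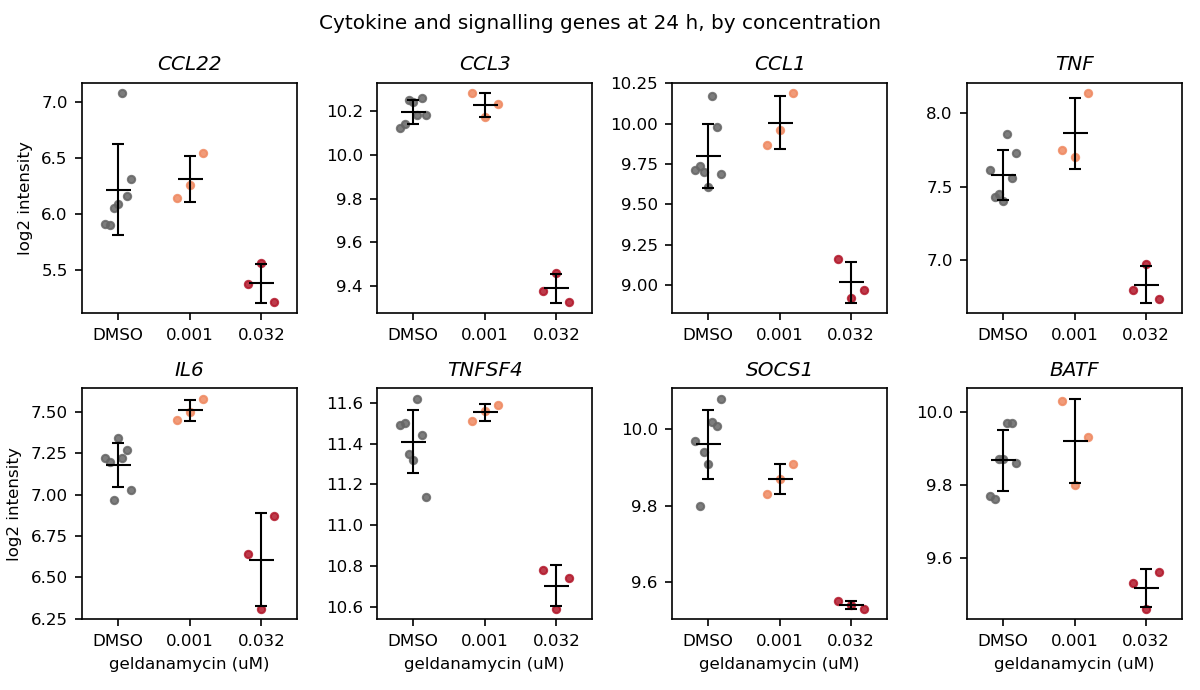
Log2 intensity at 24 h of 8 cytokine and signalling genes on the 7 DMSO arrays (grey), the 3 arrays of geldanamycin 0.001 uM (orange) and the 3 of 0.032 uM (red), with the mean and SD of each group as a bar. In each panel the 0.032 uM points lie below all others. Vertical axes do not start at 0 and differ between panels.

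Of 32 measured genes of the interferon response, 6 rose (18.8%, against 2.35% of all genes) and 0 fell. They were SAMD9, SAMD9L at 0.54 ± 0.14, IFI6 at 0.53 ± 0.15, ISG20, an RNA exonuclease, at 0.52 ± 0.10, TRIM22 at 0.30 and IRF9, an interferon regulatory factor, at 0.24. The median of the list was 0.03. SAMD9L lost its call without geldanamycin replicate 3 (0.53), and IFI6 without replicate 2 or 3 (0.42 and 0.51). Among 25 measured genes of B cell identity, 3 rose and 2 fell (12% and 8%, against 2.35% and 2.85% of all genes). CD37, a tetraspanin of mature B cells, had 10.53, 10.61 and 10.70 on geldanamycin arrays, against 9.58 to 10.11 (median 10.07) on DMSO arrays, and rose by 0.66 ± 0.07 (adjusted p = 3.20e-10). PRDM1, the factor that drives plasma cell differentiation, had 10.75, 10.70 and 10.68 on geldanamycin arrays and 9.70 to 10.30 (median 10.20) on DMSO arrays. It rose by 0.61 ± 0.08, with no overlap. BCL6, a germinal centre factor that represses PRDM1, fell by 0.27 (standard error 0.07), a call lost without geldanamycin replicate 3 (-0.23) and with the mean of probe sets (-0.238). CD37 with that mean stood at 0.361 and was called. BACH2, another repressor of PRDM1, rose by 0.20 ± 0.06. HLA-DMA, the peptide exchanger of MHC class II, was called at 0.35 ± 0.06. It was the only one called of 12 measured class II genes (8.33%, against 2.35% of all genes called higher). Of 27 genes of HSP90 client proteins, 1 rose (NR3C1, the glucocorticoid receptor, 0.21 ± 0.07) and 2 fell (CDK6, -0.21 ± 0.05, and BCL6). These shares were 3.7% and 7.41%, against 2.35% and 2.85% of all genes. NR3C1 lost its call without any of 7 arrays, and CDK6 without geldanamycin replicate 2 (-0.16) and with the mean of probe sets (-0.189).

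Lists of cell cycle genes held falls and no rises at 24 h. Of 31 measured mitosis genes, 10 fell (32.3%, against 2.85% of all genes) and 0 rose, with a list median of -0.23. CENPF, a kinetochore protein, had 9.20, 9.16 and 9.43 on geldanamycin arrays, against 9.57 to 9.81 (median 9.68) on DMSO arrays, and fell by 0.43 on the log2 scale (standard error 0.07, adjusted p = 3.73e-05). PRC1, which bundles the spindle midzone, had 9.51, 9.70 and 9.67 on geldanamycin arrays and 9.88 to 10.08 (median 10.02) on DMSO arrays, and fell by 0.38 (standard error 0.07). In both the groups stood apart. The checkpoint kinase BUB1B fell by 0.41, the mitotic kinase CDK1 by 0.23 and the survivin gene BIRC5 by 0.25. Of 33 DNA replication genes 7 fell (21.2%) and of 22 E2F and G1-S genes 8 fell (36.4%), with 0 rises in either list. CCNE1, cyclin E1, had 8.70, 8.40 and 8.37 on geldanamycin arrays, against 8.74 to 9.08 (median 9.0) on DMSO arrays, and fell by 0.46 (standard error 0.11). E2F7, a repressor of E2F targets, fell by 0.40 (standard error 0.06) and POLD1, the catalytic subunit of polymerase delta, by 0.44 (standard error 0.11). These counts hang on single arrays. Without geldanamycin replicate 2, 5 mitosis genes and 1 E2F gene were called, and without replicate 1 or 3 there were 3 and 4 replication genes. CCNE1 lost its call without geldanamycin replicate 2 or 3 (-0.42 and -0.40), and BUB1B without replicate 2 (-0.37). With the mean of probe sets 8 mitosis, 6 replication and 6 E2F genes fell and 0 rose, but CENPF (-0.358), PRC1 (-0.173) and E2F7 (-0.239) were not called.

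Among p53 targets, 1 of 32 rose and 1 fell, shares near those of all genes. CDKN1A, the cell cycle inhibitor p21, had 11.64, 11.66 and 11.59 on geldanamycin arrays, against 11.72 to 12.12 (median 11.90) on DMSO arrays, and fell by 0.27 (standard error 0.05, adjusted p = 4.38e-05). CCNG1 rose by 0.53 ± 0.14, and lost its call without any of 4 arrays. Of 18 histone genes 5 rose and 2 fell (27.8% and 11.1%, against 2.35% and 2.85% of all genes). The 5 were H2BC15, H2BC8 at 0.74 ± 0.15, H2AC6 at 0.58 ± 0.17, H2AC8 at 0.51 ± 0.11 and H2BC21 at 0.42. Histone genes are near-identical copies, so probe sets may share signal. H2AC6 lost its call without geldanamycin replicate 1 or 2 (0.51 and 0.56), and the 2 falls, H4C3 and H2AZ1, were lost without either.

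Lipid and sugar metabolism genes followed. Of 22 measured genes of cholesterol and fatty acid synthesis, 4 fell (18.2%, against 2.85% of all genes) and 0 rose. SREBF1, the transcription factor that drives lipid synthesis, had 7.17, 7.57 and 7.27 on geldanamycin arrays, against 7.66 to 8.34 (median 8.00) on DMSO arrays, and fell by 0.70 (standard error 0.14, adjusted p = 5.35e-04). SCD, which desaturates fatty acids, had 10.91, 10.93 and 10.88 on geldanamycin arrays, against 11.18 to 11.44 (median 11.25) on DMSO arrays, and fell by 0.38 (standard error 0.06). The arrays of the groups did not overlap for SREBF1 or SCD. The fall of SREBF1 rests on 1 of 3 probe sets, the others being at 0.02 and 0.03, and it was not called with their mean (-0.215). ACACA, acetyl-CoA carboxylase, fell by 0.43 and EBP, a sterol isomerase, by 0.30. The call of EBP was lost without geldanamycin replicate 1 (-0.23), and that of ACACA with the mean of probe sets (-0.169). In the list of glycolysis and hypoxia, 5 of 24 fell and 1 rose (20.8% and 4.17%, against 2.85% and 2.35% of all genes). HK2, hexokinase, fell by 0.49 (standard error 0.11), VEGFA by 0.47 (standard error 0.11) and SLC2A1, the glucose transporter GLUT1, by 0.34 (standard error 0.07). NDRG1 was the gene that rose, at 0.26 ± 0.07. Without geldanamycin replicate 3, 2 members were called lower, HK2 standing at -0.31 and VEGFA at -0.32, and NDRG1 lost its call. With the mean of probe sets HK2 (-0.269), VEGFA (-0.0976) and SLC2A1 (-0.214) were not called, and NDRG1 stood at 0.532. Of 21 lysosome and autophagy genes 4 rose (19.0%, against 2.35% of all genes) and 0 fell. Among the rises were SQSTM1, the autophagy receptor p62, at 0.22 ± 0.05 and GABARAPL1, a membrane tag of autophagosomes, at 0.58 ± 0.16. The call of GABARAPL1 was lost without any of 3 arrays.

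The remaining lists gave few calls. Of 24 MYC and ribosome biogenesis genes 4 fell (16.7%, against 2.85% of all genes) and 0 rose. POLR1A, the largest subunit of RNA polymerase I, led the falls at -0.33 ± 0.08, but 1 member was called lower without geldanamycin replicate 2. With the mean of probe sets 2 members of that list fell. Of 31 immediate early genes 4 rose and 2 fell (12.9% and 6.45%, against 2.35% and 2.85% of all genes). FOS, an AP-1 subunit, had 9.13, 8.89 and 8.95 on geldanamycin arrays, against 8.40 to 8.86 (median 8.48) on DMSO arrays, and rose by 0.44 ± 0.08. KLF6, a zinc finger factor, had 9.99, 10.01 and 10.06 on geldanamycin arrays, against 10.27 to 10.59 (median 10.44) on DMSO arrays, and fell by 0.42 (standard error 0.06). Without geldanamycin replicate 1, 2 immediate early genes were called higher. SLC7A11 was the only gene called, as lower, in the lists of ATF4 targets and of NRF2 and metal responses (19 measured each). It makes up 5.26% of either list, against 2.85% of all genes.

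**Figure D4:**
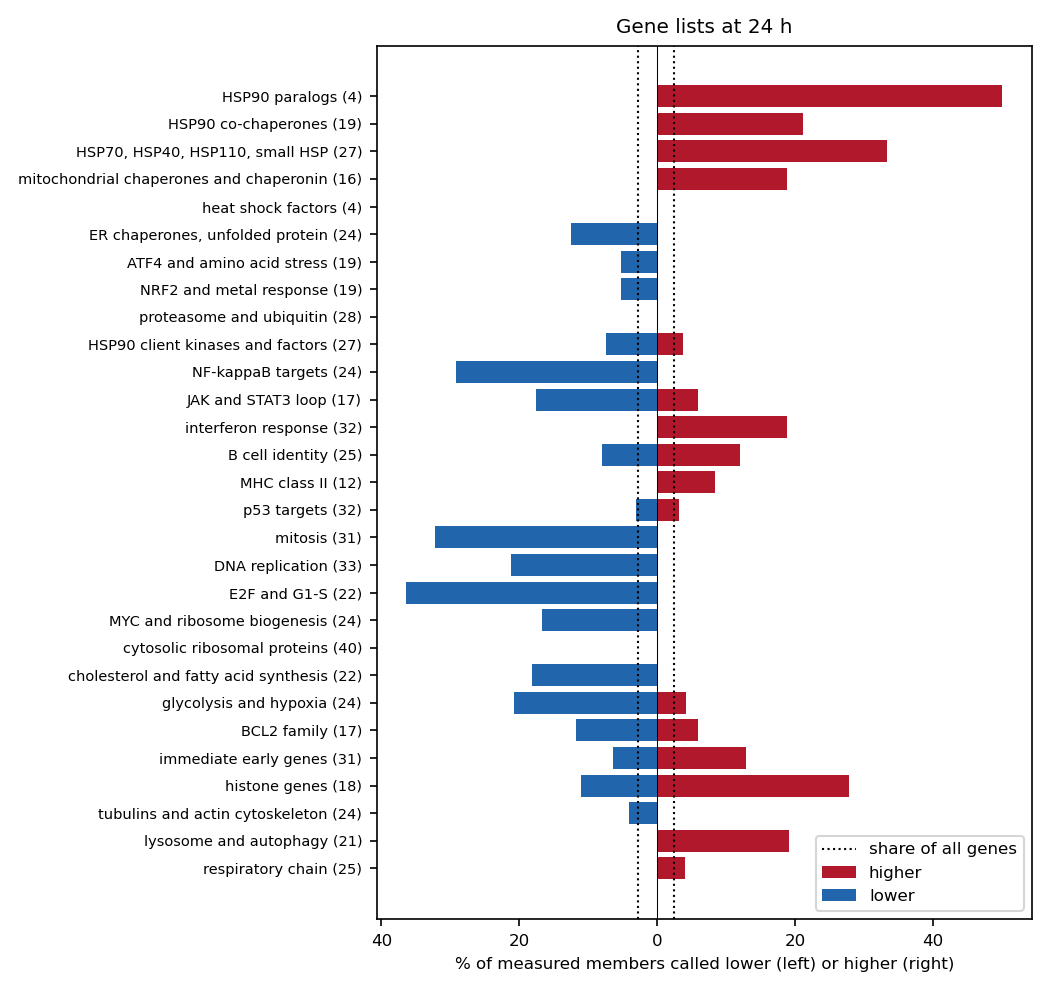
Share of the measured members of 29 gene lists that were called higher (red, right) or lower (blue, left) under geldanamycin 0.032 uM against DMSO at 24 h, in percent, with the number of measured members in brackets. Dotted lines mark the shares among all genes, 2.35% higher and 2.85% lower. The 4 chaperone lists at the top have rises only, and NF-kappaB targets, mitosis, DNA replication and E2F genes have falls only.

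The lower concentration, 0.001 uM, was set against both. Against DMSO it gave 0 called genes by limma. An unadjusted p under 0.05 was found for 453 of 18239 genes, fewer than that threshold gives by chance when nothing differs. Any difference from DMSO was thus not detectable with these arrays. Between 0.032 and 0.001 uM, 282 genes rose and 369 fell (1.55% and 2.02% of all genes). The direction of that split depends on the scaling: after quantile normalization of the kept arrays, 54.4% of the calls were higher, against 43.3% as given. CTLA4 had 6.64, 6.65 and 6.57 at 0.001 uM, within the DMSO range, and was higher by 1.53 at 0.032 uM. In CLU the 0.001 uM arrays stood at 6.37, 6.39 and 6.20, and the difference between concentrations was 1.68. Of the 27 heat shock protein genes 9 rose between the concentrations, HSPB1 by 0.68 and DNAJB1 by 0.58. Of the NF-kappaB targets 6 fell and of the mitosis genes 7. IL6 stood at 7.45, 7.50 and 7.58 at 0.001 uM, above the 7 DMSO arrays, and its difference between 0.032 and 0.001 uM was -0.90. Without replicate 3 of 0.001 uM, 329 genes were called between the concentrations. Without replicate 2 of 0.032 uM the count was 399, and without its replicate 3 it was 397.

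The same concentration was measured at 6 h on 3 geldanamycin arrays and 8 DMSO arrays, none of them used above. There 997 genes rose and 1558 fell (5.47% and 8.54% of all genes). Of the 949 genes called at 24 h (5.2% of all genes), 116 rose and 214 fell at both times, which is 34.8% of the calls at 24 h and 12.9% of those at 6 h, and 55 were called in opposite directions. The difference from DMSO was then compared between the times, as 24 h minus 6 h, and 653 genes were higher and 593 lower at 24 h (3.58% and 3.25%).

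For most called chaperone genes the difference from DMSO was smaller at 24 h than at 6 h. Of the 27 heat shock protein genes, 9 rose at 24 h and 19 at 6 h, with list medians of 0.22 and 0.64, and 15 had a lower difference at 24 h (0 a higher one). BAG3 differed from DMSO by 0.57 ± 0.07 at 24 h and by 2.11 ± 0.06 at 6 h. HSPA1B differed by 0.55 ± 0.06 at 24 h and 1.80 ± 0.06 at 6 h, DNAJB1 by 0.59 ± 0.06 and 1.77 ± 0.06, and SERPINH1 by 0.44 ± 0.09 and 1.91 ± 0.08. The change between the times was called for all 4 genes, as it was for FKBP4, a co-chaperone that binds steroid receptor complexes, at 0.19 ± 0.06 at 24 h and 1.37 ± 0.06 at 6 h. HSPB1 was an exception, at 0.61 ± 0.06 at 24 h and 0.79 ± 0.05 at 6 h, and the change of -0.18 ± 0.08 was not called (adjusted p = 0.144). Outside the chaperones, RGS2, a regulator of G protein signalling, stood at 0.66 ± 0.07 at 24 h and 1.93 ± 0.07 at 6 h, and P4HA2, a collagen prolyl hydroxylase, at 0.44 ± 0.08 and 1.56 ± 0.06. The sign differed between the times for SLC7A11 and ANKRD37. SLC7A11, the cystine transporter, was at -0.58 ± 0.14 at 24 h and 1.34 ± 0.13 at 6 h, and ANKRD37 at -0.48 ± 0.07 and 0.58 ± 0.06. The 24 h call of SLC7A11 was lost without geldanamycin replicate 3 (-0.49), and that of ANKRD37 with the mean of probe sets (-0.191). Averaged over probe sets, SLC7A11 stood at -0.294 at 24 h and was called.

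Of the 24 NF-kappaB targets, 7 fell at 24 h and 15 at 6 h, and 12 had a higher difference at 24 h (0 a lower one). CCL3 was at -0.81 ± 0.07 at 24 h and -1.34 ± 0.07 at 6 h, ICAM1 at -0.34 ± 0.05 and -0.97 ± 0.05, and TRAF1 at -0.29 ± 0.06 and -0.85 ± 0.05. IL6 was at -0.57 ± 0.11 at 24 h and -0.95 ± 0.11 at 6 h, and that change was not called. Mitosis genes ran the other way, with 0 rises and 10 falls at 24 h and 11 rises and 2 falls at 6 h, and 18 of 31 had a lower difference at 24 h. PRC1 was at -0.38 ± 0.07 at 24 h and 0.19 ± 0.05 at 6 h. Several of the genes furthest from DMSO at 24 h were not called at 6 h. POSTN was at -1.20 ± 0.10 at 24 h and -0.20 ± 0.08 at 6 h, GPR155 at 1.07 ± 0.15 and 0.13 ± 0.14, AK1 at 0.80 ± 0.09 and 0.09 ± 0.08, and CD37 at 0.66 ± 0.07 and -0.02 ± 0.07, each change between the times being called. CLU was the reverse, at 1.32 ± 0.12 at 24 h and 1.95 ± 0.10 at 6 h. The difference of CTLA4 from DMSO was larger at 24 h, 1.49 ± 0.16 against 0.92 ± 0.12. Its level was lower at 24 h in both groups, at 8.15 against 9.20 under geldanamycin and 6.66 against 8.28 in DMSO. DMSO means moved between the times for other genes too, such as SAMD9 (5.43 at 24 h, 7.81 at 6 h) and S100A10 (5.28 and 4.72).

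**Figure D5:**
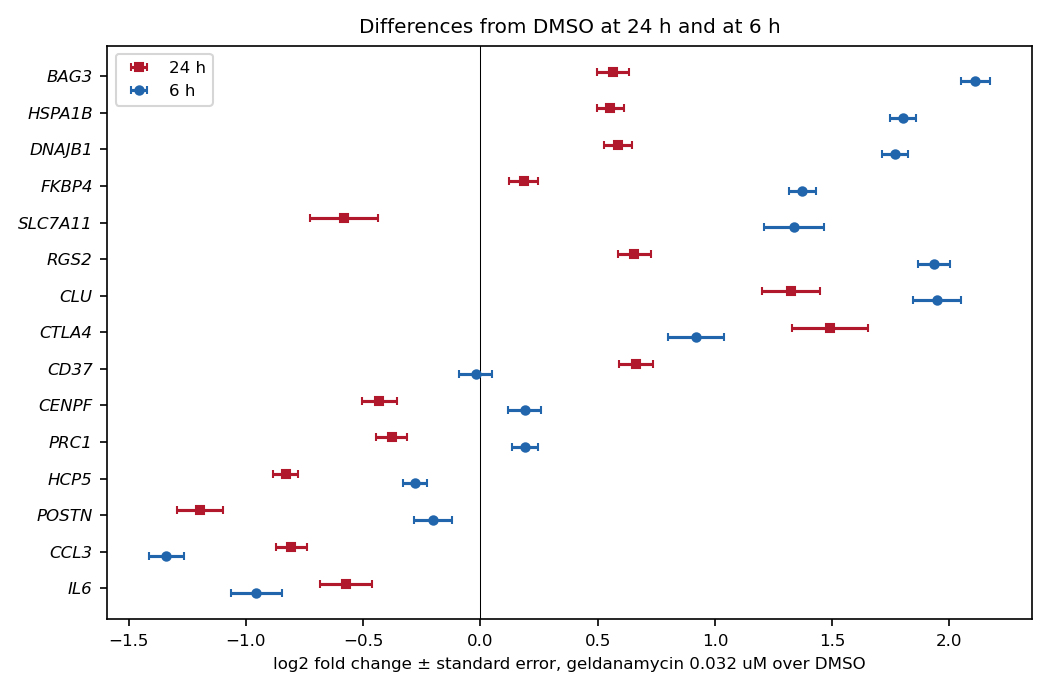
Log2 fold change of geldanamycin 0.032 uM over DMSO (horizontal axis) with its standard error, for 15 genes at 24 h (red squares) and at 6 h (blue circles). BAG3, HSPA1B, DNAJB1, FKBP4 and RGS2 stand farther right at 6 h, POSTN, HCP5 and CD37 are farther from 0 at 24 h, and SLC7A11 lies on opposite sides of 0.

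Geldanamycin was last set against the mean of the other 13 compounds at their higher concentrations (34 kept arrays at 24 h), which are not matched in dose. Compounds kept 2 to 6 arrays, except cycloheximide with 1, whose ACTB 3′ minus 5′ difference of 1.08 was over the limit of 0.5 tried as an alternative. Other kept arrays of 24 h were over it too, among them DMSO replicates 5 (0.78) and 6 (0.63) and replicate 3 of 0.001 uM (0.59). Some arrays of other compounds were as well, while the geldanamycin 0.032 uM arrays ran from 0.18 to 0.34. There 1953 genes were higher and 1516 lower under geldanamycin (10.7% and 8.31% of all genes). Of 32 p53 targets 28 were lower and 0 higher, with a list median of -0.70. CDKN1A averaged 11.63 ± 0.04 (SD, n = 3) under geldanamycin, below the means of all 13 other compounds, which ran from 11.76 to 13.62. TP53I3 averaged 8.62 ± 0.05 (SD, n = 3) under geldanamycin, against compound means of 8.26 to 12.09, so some compounds lay below it. TNFSF4 at 10.70, HCP5 at 10.48 and KLF6 at 10.02 were each below the lowest mean of the other compounds (11.12, 10.82 and 10.57), and IL23A, a subunit of interleukin 23, at 11.80 was above the highest (11.42, the single cycloheximide array, and 11.2 without it). The lowest values were means of 2 or 3 arrays and did not depend on cycloheximide. Of the heat shock protein genes 13 of 27 were higher and 1 lower, and of the mitosis genes 25 of 31 were higher, although 10 of them fell against DMSO.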

How the data were processed

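Labelled RNA (300 ng total RNA per sample) was measured on Affymetrix HT HG-U219 array plates. The deposited values are on the log2 scale and were summarised by the authors with RMA, per the submitters' processing notes; its version is not given in the sources used here. Of 49386 probe sets, 93 are controls and 45259 carry 1 gene symbol in the platform annotation. Each of 18239 genes was represented by its probe set of highest mean across the arrays. No array was identical to another. Means per group were fitted with limma 3.58.1 in R 4.3.3 over the 77 of 94 arrays of 24 h that passed the percentile limit of 8, using eBayes with a variance trend, and Benjamini-Hochberg adjusted p-values were taken over all genes of a contrast (called: under 0.05). The number of arrays limits the precision. Times were compared in a fit of both times' arrays. Detection calls were not used. The script was tested on simulated data.

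Members, the 34 gene lists and alternatives were chosen with earlier results of these data known. Genes are named by rule: the 15 largest rises and falls among called genes without overlap, HSP90 paralogs and called chaperones, up to 4 called members of each other list, and those leading the contrasts of concentration, time and other compounds. Further list members were chosen after their values were seen.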

Additional observations from a re-analysis of the deposited data

Results flagged for a closer look

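In 8 of the 140 genes examined, 1 DMSO array of 24 h stood apart from the other 6 by more than a test for single outliers allows at the 5% level. Chance gives about 1 in 20 such flags. PLAAT4 was at 5.10 on DMSO replicate 8, the others being at 4.18 to 4.57. CCL22 was at 7.08 on DMSO replicate 5, against 5.90 to 6.31 on the others, and ENC1 at 9.45 on replicate 6, against 9.70 to 9.86. HSPE1 was at 11.20 on replicate 8 (others 11.40 to 11.54), FOS at 8.86 on replicate 2 (8.40 to 8.59), TUBB4B at 13.72 on replicate 5 (13.61 to 13.65), GABARAP at 11.98 on replicate 2 (12.10 to 12.16) and COL1A2 at 5.37 on replicate 8 (4.59 to 4.83). The outlying DMSO array lay toward the geldanamycin arrays for PLAAT4, ENC1 and FOS, and away from them for CCL22, HSPE1, TUBB4B and GABARAP.

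The difference from DMSO was not the same at 24 h and 6 h for 10 named genes with the smallest p in that contrast of limma. As 24 h minus 6 h on the log2 scale, the change was -1.54 for BAG3, -1.48 for SERPINH1, -1.28 for RGS2, -1.25 for HSPA1B, -1.19 for FKBP4, -1.18 for DNAJB1, -1.11 for P4HA2, -1.05 for ANKRD37, -0.70 for DNAJB6 and -0.64 for HSPH1.

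The arrays of 12 h were outside the comparisons, since 2 of 3 geldanamycin and 4 of 8 DMSO arrays passed the percentile limit. On them CLU differed from DMSO by 2.25 and CTLA4 by 1.34, with both geldanamycin arrays above all 4 DMSO arrays. Of the 15 largest rises of 24 h, 8 stood apart from DMSO in the same way at 12 h, and of the 15 largest falls 10 did. The share of all genes that stood apart with so few arrays was not counted, so these counts have no yardstick. By limma, 18 of these 30 genes were called at 12 h, where 1754 of all 18239 genes were called. GPR155 (-0.18), CLSTN2 (0.11) and POU3F2 (0.10) had the opposite sign at 12 h.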

How the results depend on the processing

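Counts of called genes depended most on which arrays entered the fit. With all arrays, including those of low signal, the calls came to 4 against DMSO at 24 h, 3 between concentrations, 6 between times and 80 against the other compounds. With the groups compared alone they came to 259, 389 and 678 for the first 3, with fewer arrays behind the spread. The cause of these lower counts was not tested. Leaving out each kept array of both groups in turn gave 574 to 996 against DMSO, 329 to 586 between concentrations and 0 for 0.001 uM against DMSO. Between times only the 24 h arrays were left out (992 to 1296), and against the other compounds only the 3 geldanamycin arrays (2324 to 2752). The low counts against DMSO were 574 without geldanamycin replicate 2 and 578 without replicate 3. Between concentrations the low counts were 399 and 397 without these arrays, and 329 without replicate 3 of 0.001 uM. A stricter percentile limit of 8.1, bioB as a covariate, no trend, no genes of the lowest 40%, quantile normalization, the mean of all probe sets and leaving out arrays with an ACTB 3′ minus 5′ difference over 0.5, the last chosen after seeing the data, kept the count against DMSO within 1.5 times of 949. The ACTB limit leaves out DMSO replicates 5 and 6 of 24 h, and 1189 genes were then called. The share of higher calls moved, to 536 higher and 475 lower after quantile normalization, and 527 and 393 with the mean of probe sets, the only setting where a named gene changed sign (TUBB4B, 0.0619). With that mean, 35 of 88 named calls with several probe sets moved by over 1.5 times and 26 were lost. Of 115 named genes called, 73 kept their call whichever array was left out, and 4 kept it under every alternative.

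Replicate numbers do not pair the samples: deviations of same-numbered arrays correlated at 0.239, -0.147 and -0.115. With the number as a replicate block, 794 genes were called against DMSO, 719 between concentrations, 853 between times and 3677 against the other compounds, and 30 of the 115 named calls were lost. Background was not measured, so differences of genes below the array medians may be understated.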
